A study of Homo sapiens with 8 samples.

Results

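Promoter windows of 60 genes for the Mediator complex, the general transcription factors and a set of chromatin remodelling and histone-modifying enzymes were examined in OGAP-seq data from RPE1 cells, an immortalised human line of retinal pigment epithelial origin. OGAP-seq enriches DNA fragments that carry oxidative base damage before sequencing, so a window with more pull-down (OGAP) than input reads is over-represented among the captured fragments relative to other windows. The members were chosen by gene symbol and matched to windows by the hg38 position of the gene start. Of the 60 listed genes, 56 were matched by position to a window among the 19957 promoter windows of the count table. The labels state that the purpose of the series was to measure how depletion of NuMA (TDIF), a large nuclear and spindle-pole protein, affects oxidative damage across the genome.

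There were 4 groups of 2 libraries. WT OGAP and WT input came from cells labelled wild type, without doxycycline. KD OGAP and KD input came from cells labelled NuMA (TDIF)-KD, after doxycycline. The input libraries hold DNA that was not pulled down. Every KD library and no WT library came from doxycycline-treated cells, so the drug and the depletion cannot be told apart when the states are compared. The labels do not say whether replicates were separate cultures, so p-values measure only the spread between libraries, which may be technical. The libraries held 368593 to 771138 promoter reads, fewest in WT OGAP. The table counts DNA fragments and has no marker of cell type, so the line's identity was not checked here.

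Mediator is a large complex that relays signals from enhancer-bound activators to RNA polymerase II, and is built of head, middle and tail modules with a detachable kinase module. TFIID, which contains the TATA-binding protein TBP and its associated factors (the TAFs), recognises the core promoter, after which TFIIB, TFIIE and TFIIF help to load and position the polymerase. SWI/SNF complexes move nucleosomes, EP300 and CREBBP acetylate histones, HDAC enzymes remove acetyl groups, EZH2 methylates histone H3 for Polycomb repression, KDM1A removes histone methyl groups, and CTCF is the main insulator protein of vertebrate chromatin. Guanine is the base most easily oxidised in DNA, and promoters of such broadly used genes are often rich in G, C and CpG dinucleotides.

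Each window was 2001 bp long and centred on an annotated start. Of the 56 windows, 51 lay at the RefSeq start of the gene, and those of TAF6 and TAF12 lay at the start of another transcript. In the windows of GTF2F1, SMARCE1 and EP300 the gene start was present but 818, 691 and 807 bp from the centre. MED15, MED24, ARID1A and HDAC2 had no window with their RefSeq start inside it and were not analysed here. The nearest window on the same strand lay 11698 bp upstream of the start of MED15, 6808 bp upstream of MED24, 2780 bp upstream of ARID1A and 40161 bp upstream of HDAC2. Whether these windows belong to the same genes under another gene model was not checked, so the count table may still hold them.

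Whether a member could be measured followed the crowding of its locus. The 39 windows that overlapped no other window held 150 to 396 reads over the 8 libraries, with a median of 268, and all were tested. The other 17 overlapped a neighbouring window. Among these, 11 held 4 to 30 reads and did not pass the count filter: MED8, MED17, MED20, MED22, MED7, MED31, MED29, MED23, GTF2E1, KAT2A and HDAC3. The other overlapping members, MED19, MED26, MED25, TBP, TAF6 and TAF11, held 38 to 154 reads and were tested, with wide errors. The MED22 window shared 1920 of its bases with that of RPL7A on the opposite strand, HDAC3 shared 1923 with RELL2 and MED29 1895 with PAF1. MED17, a central head subunit of Mediator, held 3 and 1 WT OGAP reads and 0 and 4 WT input reads. Over the whole table the median was 264 reads for windows without overlap and 24 for the 3741 with overlap. In all, 45 members were tested among 17130 windows, so the 11 untested members say nothing in either direction.

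The 250 bases upstream of the start are shown for 6 members around which the results turn, from the RefSeq promoter table for GRCh38.p14, 5′ to 3′ on the gene's own strand, with each CpG dinucleotide in capitals. The first 3 had the lowest p-values among members with more OGAP than input in WT. They lie at chr1:28328790-28329039 on the plus strand (MED18), chr17:4731178-4731427 on the plus strand (MED11) and chr6:99568815-99569064 on the minus strand (CCNC).
MED18: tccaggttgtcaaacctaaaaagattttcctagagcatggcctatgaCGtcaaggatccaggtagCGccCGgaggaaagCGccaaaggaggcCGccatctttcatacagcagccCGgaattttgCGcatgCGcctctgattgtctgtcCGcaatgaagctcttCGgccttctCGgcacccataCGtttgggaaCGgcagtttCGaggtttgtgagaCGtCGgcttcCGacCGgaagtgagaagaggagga
MED11: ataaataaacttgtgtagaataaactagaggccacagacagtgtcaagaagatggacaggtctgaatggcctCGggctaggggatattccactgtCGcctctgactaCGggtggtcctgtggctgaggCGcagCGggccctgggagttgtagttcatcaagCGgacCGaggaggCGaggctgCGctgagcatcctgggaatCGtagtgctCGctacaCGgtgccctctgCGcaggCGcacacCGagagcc
CCNC: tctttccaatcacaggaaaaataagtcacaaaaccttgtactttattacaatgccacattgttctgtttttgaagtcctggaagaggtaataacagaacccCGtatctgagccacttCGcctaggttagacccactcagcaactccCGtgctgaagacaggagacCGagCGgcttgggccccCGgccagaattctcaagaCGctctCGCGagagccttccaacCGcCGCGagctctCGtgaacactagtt
The other 3 had the lowest p-values among members with less OGAP than input in WT, although none of them passed the threshold. They lie at chr13:26253879-26254128 on the plus strand (CDK8), chr11:6612217-6612466 on the minus strand (TAF10) and chr10:7818255-7818504 on the plus strand (TAF3).
CDK8: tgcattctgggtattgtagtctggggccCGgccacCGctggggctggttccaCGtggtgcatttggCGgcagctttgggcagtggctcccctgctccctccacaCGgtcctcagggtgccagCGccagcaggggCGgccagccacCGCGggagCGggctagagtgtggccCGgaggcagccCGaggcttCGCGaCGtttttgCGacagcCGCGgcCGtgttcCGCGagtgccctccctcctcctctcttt
TAF10: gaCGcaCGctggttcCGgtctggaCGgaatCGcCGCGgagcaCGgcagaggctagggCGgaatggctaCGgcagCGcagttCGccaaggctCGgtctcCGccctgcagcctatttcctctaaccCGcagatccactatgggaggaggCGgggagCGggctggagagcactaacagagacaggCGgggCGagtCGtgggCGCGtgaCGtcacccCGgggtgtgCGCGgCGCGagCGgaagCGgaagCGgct
TAF3: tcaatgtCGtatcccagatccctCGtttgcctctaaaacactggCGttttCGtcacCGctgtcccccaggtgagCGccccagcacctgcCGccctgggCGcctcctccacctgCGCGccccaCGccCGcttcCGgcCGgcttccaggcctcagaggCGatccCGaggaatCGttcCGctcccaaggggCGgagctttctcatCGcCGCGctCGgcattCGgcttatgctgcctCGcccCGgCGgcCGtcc
The 250 bases held 18 CpG in MED18, 15 in MED11 and 13 in CCNC, against 21 in CDK8, 31 in TAF10 and 28 in TAF3. Their GC content was 54.4%, 58.0% and 50.4% in the first 3, against 68.8%, 68.8% and 68.0% in the others.

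OGAP over input in WT asks which promoters were over- or under-represented in the pull-down of undepleted cells. Of the 45 tested members, 6 rose and none fell at an adjusted p below 0.05 (edgeR quasi-likelihood test, Benjamini-Hochberg over 17130 windows): MED18, MED11, CCNC, MED28, MED16 and MED30. That is 13.3% of the members, against 13.7% of all tested windows called in either direction (9.25% higher and 4.45% lower), so the share called was near the background. All 6 encode Mediator subunits. Of the 18 tested Mediator members 6 were called and 13 had a positive log2 change, where 48.7% of all windows were positive. Their median was 0.76, against -0.02 for all windows. The 5 tested Mediator genes outside the member list were all negative, with a median of -0.44, and none was called. Of the 27 members outside Mediator none was called, 12 had a positive change and the median was -0.13. In these 27, 6 had an unadjusted p below 0.05 (22.2%, against 28.5% of all windows). DESeq2, run as an alternative, called 3 of the 45 members, MED18, MED11 and CCNC, and 884 of all 17130 windows. The difference between Mediator and the other members was not tested.

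**Figure D1:**
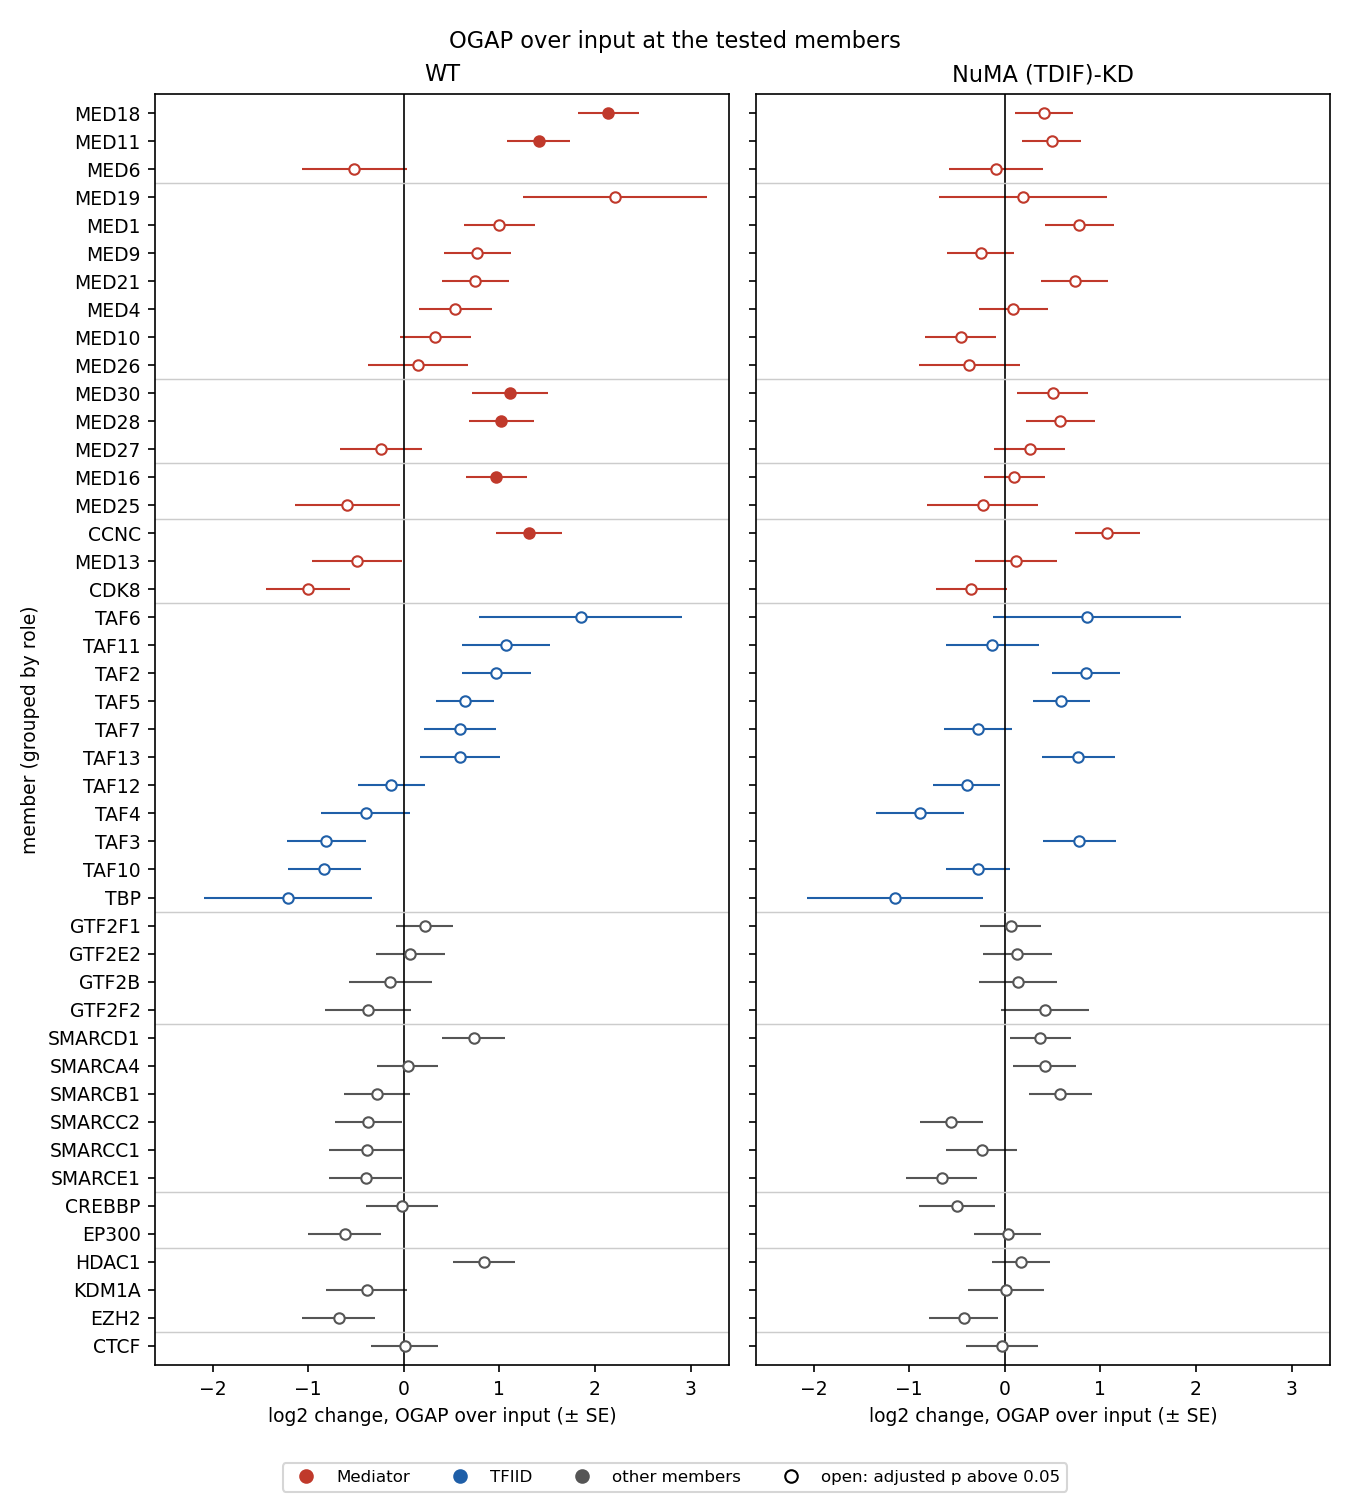
Log2 change of OGAP over input (x axis, ± SE) for the 45 tested members (y axis, grouped by role) in WT (left) and KD (right), from 2 OGAP and 2 input libraries a state. Filled points have an adjusted p below 0.05 (edgeR): 6 in WT, all in Mediator, and none in KD.

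Among the head subunits MED18 had the strongest change. The product of MED18 sits in the movable jaw of the Mediator head. Its window (chromosome 1, 28328001 to 28330001) held 153.4 and 153.2 CPM (reads scaled to the size of the library) in the WT OGAP libraries and 42.0 and 27.2 in their inputs. The KD values were 108.1 and 85.8 in OGAP and 60.5 and 86.8 in input. Both WT OGAP libraries were the highest of the 8 and both WT input libraries the lowest. The log2 change in WT was 2.14 ± 0.32 (SE; edgeR adjusted p = 9.61e-07), from 54 and 58 reads against 31 and 21 in deeper libraries. It was 1.85 to 2.47 when any single library was left out and was called every time.

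MED11, a small head subunit, had 130.7 and 105.7 CPM in WT OGAP and 28.5 and 59.7 in WT input. In KD it had 97.3 and 106.1 in OGAP and 54.7 and 89.9 in input. The OGAP libraries lay above the inputs in each state. The WT change was 1.41 ± 0.33 (edgeR adjusted p = 0.00166), but it was not called without the first WT input library (0.97, adjusted p = 0.0964). MED6, the remaining tested head subunit, had 8.5 and 37.0 in WT OGAP and 48.8 and 18.2 in WT input, and its groups overlapped.

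The middle module includes MED1, the main docking subunit for nuclear receptors. None of its 7 tested members was called, and all 7 had a positive WT change, with a median of 0.75 that stayed positive for all 7 under both other scalings. MED1 had 102.3 and 60.8 CPM in WT OGAP and 36.6 and 44.1 in WT input, without overlap. Its change of 1.0 ± 0.37 fell short of the threshold (edgeR adjusted p = 0.0587) and passed only without the second WT OGAP library (1.33, adjusted p = 0.0383). The changes of MED9 and MED21 were 0.77 ± 0.35 and 0.75 ± 0.35, with edgeR adjusted p of 0.13 and 0.142. MED19 had the highest change of any member, 2.21 ± 0.96, but from only 7 and 7 OGAP reads and 1 and 5 input reads in an overlapping window (edgeR adjusted p = 0.108).

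MED28 and MED30 lie where head and tail meet. MED28 had 79.5 and 134.8 CPM in WT OGAP and 50.2 and 55.8 in WT input. Its change was 1.02 ± 0.34 (edgeR adjusted p = 0.0306). MED30 had 76.7 and 55.5 in WT OGAP and 27.1 and 33.7 in WT input, a change of 1.11 ± 0.40 (edgeR adjusted p = 0.0484). In both genes the lowest OGAP library exceeded the highest input library. The MED28 call was lost without the second WT OGAP library (0.58, adjusted p = 0.453) and without the first (0.93, adjusted p = 0.145) or the second WT input library (1.09, adjusted p = 0.117). The MED30 call was lost without any 1 of the 8 libraries (change 0.85 to 1.32, adjusted p 0.0516 to 0.29). MED27, the other tested subunit there, had 62.5 and 15.9 CPM in WT OGAP and 47.5 and 44.1 in WT input. Its groups overlapped, and its change of -0.24 ± 0.43 (edgeR adjusted p = 0.746) was 0.45 without the second WT OGAP library.

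MED16, a tail subunit that receives activator signals, had 139.2 and 95.1 CPM in WT OGAP and 52.9 and 66.2 in WT input. Its change was 0.97 ± 0.32 (edgeR adjusted p = 0.0321). It was not called without the first WT OGAP library (0.66, adjusted p = 0.31), the first WT input library (0.81, adjusted p = 0.191) or the second (1.13, adjusted p = 0.0896). MED25, the other tested tail member, had 4 and 14 WT OGAP reads and 22 and 34 WT input reads in an overlapping window, and its groups overlapped when scaled to depth.

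The kinase module members went apart. CCNC encodes cyclin C, the partner of the CDK8 kinase that gives the module its activity. CCNC had 102.3 and 92.5 CPM in WT OGAP and 43.4 and 35.0 in WT input. The KD libraries gave 91.9 and 92.5 for OGAP and 40.3 and 47.2 for input. The 4 OGAP libraries all lay above the 4 inputs. The WT change was 1.31 ± 0.35 (edgeR adjusted p = 0.00642), and it was not called without the first WT OGAP library (1.22, adjusted p = 0.0512) or the second WT input library (1.15, adjusted p = 0.0952). CDK8 had 28.4 and 26.4 in WT OGAP and 42.0 and 67.5 in WT input, also without overlap but with OGAP below input. Its change of -1.0 ± 0.44 did not pass (edgeR adjusted p = 0.112). The difference between the changes of CCNC and CDK8 was not tested.

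**Figure D2:**
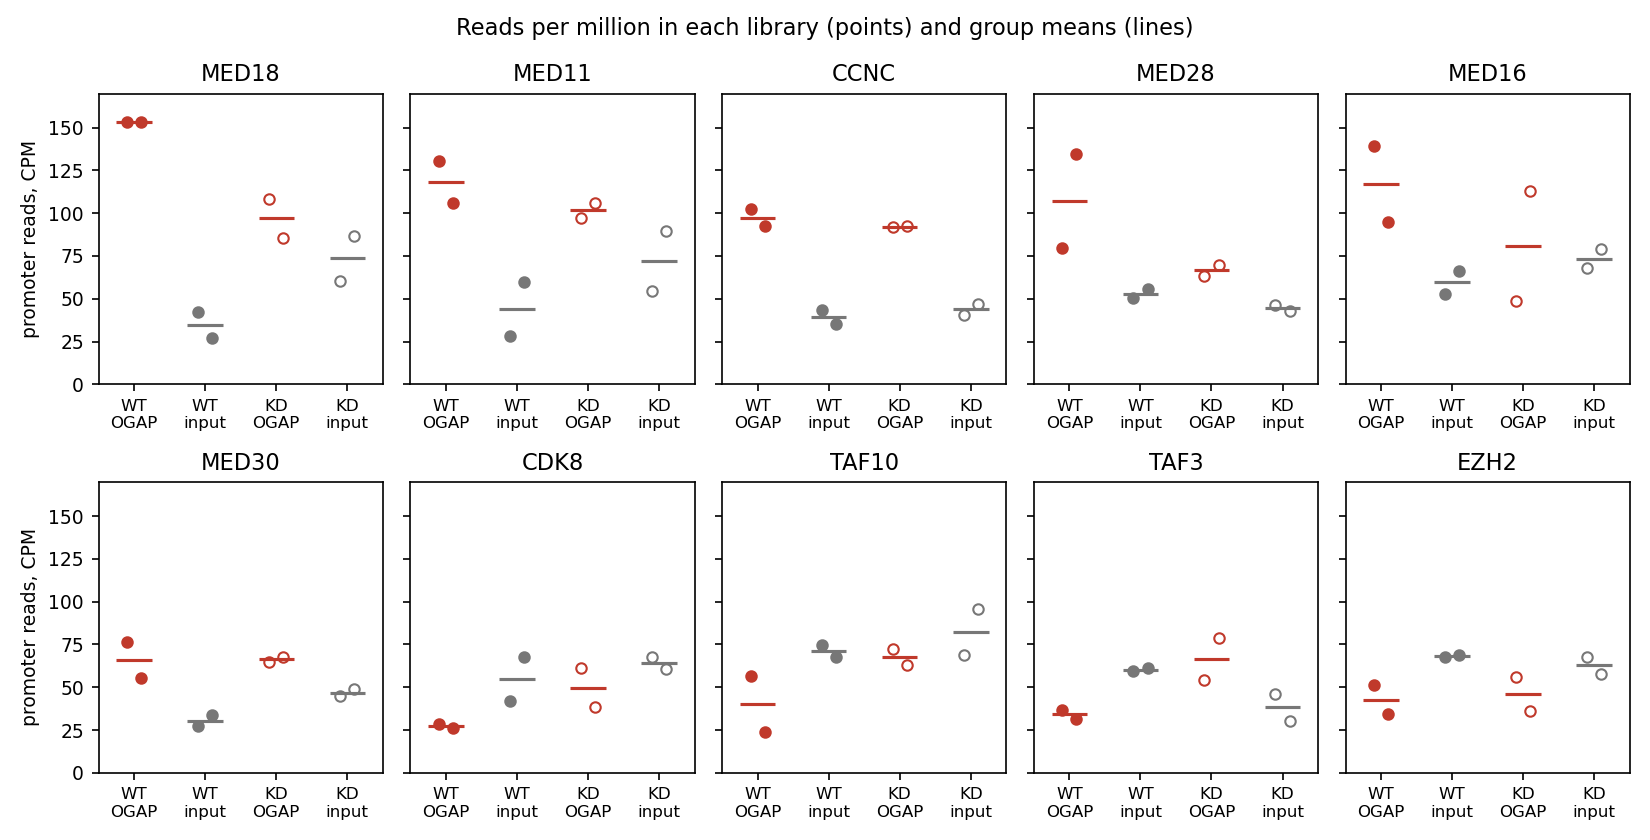
Promoter CPM (y axis) in each of the 8 libraries (points; lines are means of 2) for the 6 members called in WT and the 4 members with the lowest p on the lower side (CDK8, TAF10, TAF3, EZH2). Red marks OGAP, grey input, filled WT and open KD. In WT all 6 called members have both OGAP points above both input points, and the other 4 have both below. The genes were picked by p-values from these WT libraries, so this order is not independent of that choice. Over all windows 28.5% had both WT OGAP libraries above both inputs and 28% had both below.

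No TFIID gene was called in WT. Of the 11 tested, 6 had a positive and 5 a negative change, with a median of 0.59, and the changes ran from -1.21 to 1.85. TAF2, which contacts initiator DNA, had 93.7 and 74.0 CPM in WT OGAP and 54.2 and 31.1 in WT input, a change of 0.97 ± 0.36 (edgeR adjusted p = 0.0594) that passed only without the first WT input library (1.41, adjusted p = 0.0441). TAF5, a WD40 scaffold subunit, had 122.1 and 105.7 in WT OGAP and 66.5 and 79.1 in WT input, a change of 0.64 ± 0.30 (edgeR adjusted p = 0.141). TAF6 and TAF11, both in overlapping windows, had changes of 1.85 ± 1.06 and 1.07 ± 0.46 (edgeR adjusted p = 0.24 and 0.101). In these 4 genes both OGAP libraries lay above both inputs in CPM, an order that 28.5% of all windows had. For TAF6 this rests on 3 and 8 OGAP reads and 6 and 0 input reads. Its lower OGAP library held 8.5 CPM and its higher input library 8.1.

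TAF10, TAF3 and TBP had the opposite order. TAF10, a histone-fold subunit that TFIID shares with the SAGA complex, had 56.8 and 23.8 CPM in WT OGAP and 74.6 and 67.5 in WT input. Its change was -0.83 ± 0.38 (edgeR adjusted p = 0.136) and passed only without the first WT OGAP library (-1.58, adjusted p = 0.0426). TAF3, which binds trimethylated lysine 4 of histone H3 through its PHD finger, had 36.9 and 31.7 in WT OGAP and 59.7 and 61.0 in WT input, a change of -0.81 ± 0.41 (edgeR adjusted p = 0.181). TBP, in an overlapping window, had 4 and 2 WT OGAP reads against 19 and 10 input reads. Its change was -1.21 ± 0.88 (edgeR adjusted p = 0.38).

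The remaining general transcription factor genes, GTF2B, GTF2E2, GTF2F1 and GTF2F2, had changes between -0.37 and 0.22, and none had an unadjusted p below 0.05. The 6 SWI/SNF members ran from -0.40 to 0.73 with a median of -0.33, and none was called. SMARCA4, the ATPase BRG1, had 113.6 and 68.7 CPM in WT OGAP and 71.9 and 103.8 in WT input, a change of 0.04 ± 0.32. SMARCD1, an accessory subunit, had the highest of the 6 changes, 0.73 ± 0.33 (edgeR adjusted p = 0.119).

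None of the histone-modifying enzymes or CTCF was called in WT. HDAC1 had 82.4 and 116.3 CPM in WT OGAP and 46.1 and 64.9 in WT input, a change of 0.84 ± 0.32 without overlap of the libraries (edgeR adjusted p = 0.066). EZH2 had 51.1 and 34.3 in WT OGAP and 67.8 and 68.8 in WT input, a change of -0.68 ± 0.38 (edgeR adjusted p = 0.233). EP300 had 51.1 and 39.6 for OGAP and 70.5 and 68.8 for input, a change of -0.62 ± 0.38 (edgeR adjusted p = 0.28). Both of these had OGAP below input in every WT library. The paralogue CREBBP had 71.0 and 55.5 in WT OGAP and 32.5 and 94.7 in WT input, and its change was -0.02 ± 0.38. KDM1A had -0.39 ± 0.42 and CTCF 0.01 ± 0.35. For CREBBP and CTCF the 2 WT input libraries differed by more than their OGAP libraries did, at 47.5 and 110.3 for CTCF.

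Counted without a test, 17 members had both WT OGAP libraries above both inputs and 9 had both below. Over all windows these shares were 28.5% and 28.0%, where 17 and 9 of 45 members are 37.8% and 20.0%. An unadjusted p below 0.05 was reached by 17 members (37.8%), against 28.5% of all windows.

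OGAP over input in KD asks the same of the depleted cells. No member was called, where 0.736% of all windows were. With edgeR 7 members had an unadjusted p below 0.05 (15.6%, against 12.6% of all windows), and with DESeq2 1 had. The median change of the members was 0.10, against 0.03 for all windows. CCNC came nearest, at 1.07 ± 0.34 (edgeR adjusted p = 0.113), with no overlap between OGAP and input. TAF2, MED1 and MED21 followed at 0.85 ± 0.36, 0.78 ± 0.36 and 0.73 ± 0.35 (edgeR adjusted p = 0.289, 0.333 and 0.362).

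Of the other members called in WT, MED18 had a KD change of 0.41 ± 0.30, MED11 0.49 ± 0.31, MED28 0.58 ± 0.36, MED30 0.50 ± 0.37 and MED16 0.10 ± 0.32. The sign of the MED16 value turned without the second KD OGAP library (-0.59) and without the first KD input library (-0.02). The second KD OGAP library held 112.9 CPM for MED16 and the first 48.7. On the lower side were TAF4, a TFIID scaffold subunit, at -0.89 ± 0.46 (edgeR adjusted p = 0.41), SMARCE1 at -0.66 ± 0.37, SMARCC2 at -0.56 ± 0.33 and CREBBP at -0.50 ± 0.40. CDK8 had -0.35 ± 0.37. TAF3 was at 0.78 ± 0.38 in KD, from 54.1 and 79.0 CPM in OGAP and 46.1 and 30.5 in input, where its WT libraries had the reverse order.

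The changes in WT and KD rest on different libraries. Across the 45 members they correlated at r = 0.55, and across all windows at r = 0.54. These are descriptions over genes, which share libraries and are not independent replicates. The sign was the same in 31 members (68.9%, against 67.7% of all windows), and the change was larger in size in WT in 30 (66.7%, against 64.7%). The members were thus close to the rest of the table in both respects.

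**Figure D3:**
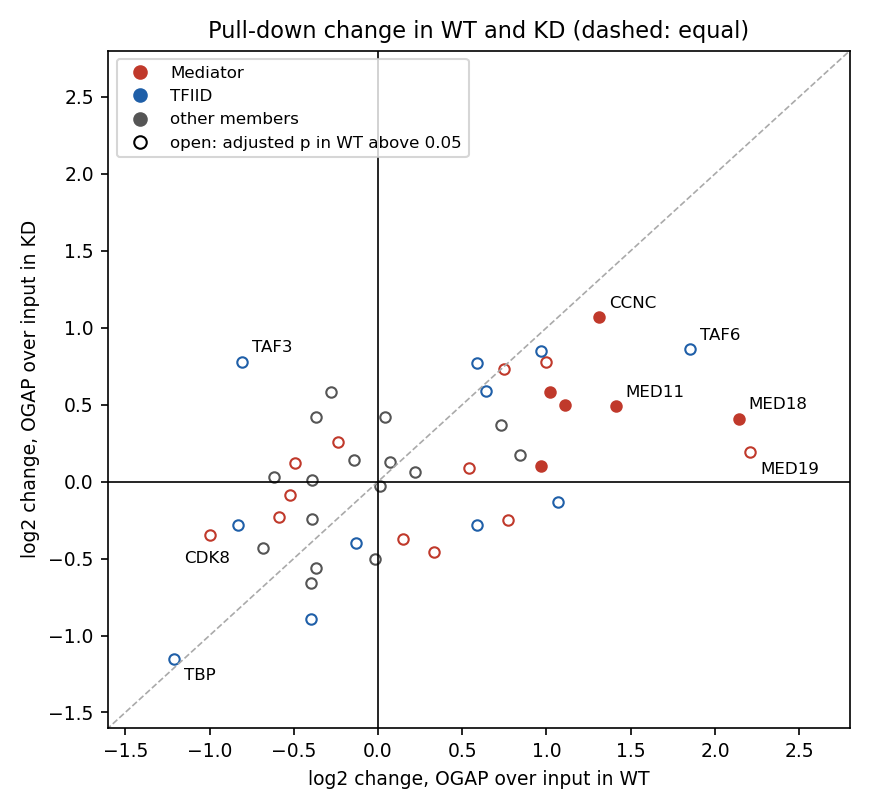
Log2 change of OGAP over input in WT (x axis) against that in KD (y axis) for the 45 tested members; filled points were called in WT and the dashed line marks equal values. The 6 called members lie below the line, CCNC nearest to it (1.31 and 1.07) and MED18 far from it (2.14 and 0.41). They were picked by the WT values on the x axis, so their place below the line is not independent of that choice. Of all windows, 64.7% had a change larger in size in WT.

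KD against WT within OGAP asks whether depletion moved the pull-down level of a promoter. No member was called, where 0.035% of all windows were. With edgeR 4 members had an unadjusted p below 0.05 (8.89%, against 10.6% of all windows), and with DESeq2 1 had. The median change was -0.18, against 0.01 for all windows. Of the 45 members 30 had a negative change (32 with RLE scaling and 29 with upper quartile scaling). Over all windows 8420 of 17130 were negative. TAF11 had the lowest p: 71.0 and 50.2 CPM in WT OGAP and 27.0 and 27.1 in KD OGAP, a change of -1.15 ± 0.49 (edgeR adjusted p = 0.379) in an overlapping window. MED28 had -0.70 ± 0.35, MED18 -0.65 ± 0.30 and GTF2F1 -0.63 ± 0.33. Each of these 4 had both KD libraries below both WT libraries. On the upper side TAF3 had 0.94 ± 0.43 (edgeR adjusted p = 0.411), CDK8 0.88 ± 0.46, TAF10 0.76 ± 0.40 and MED27 0.75 ± 0.43. TAF3, CDK8 and TAF10 were among the members lowest in the WT comparison, which used the same WT OGAP libraries, so these values are not independent of it. Without overlap, 6 members were higher and 9 lower in KD, and over all windows 19.6% were higher and 19.9% lower.

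KD against WT within input shows how far DNA that was not pulled down differed between the states. No member and no window was called (0%); 3 members had an unadjusted p below 0.05 with edgeR and 1 with DESeq2, where 756 windows (4.41%) had with edgeR. MED18 had the lowest p among members, at 1.08 ± 0.33 (unadjusted p = 0.00134, edgeR adjusted p = 0.999), with both KD inputs above both WT inputs. MED11 had 0.70 ± 0.33, TAF7 0.62 ± 0.35 and HDAC1 0.58 ± 0.30. On the lower side GTF2F2 had -0.79 ± 0.43, SMARCA4 -0.66 ± 0.31, TAF3 -0.65 ± 0.37 and CTCF -0.61 ± 0.34. For MED18 and TAF3 the differences between the states in input and in OGAP had opposite signs.

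The interaction tests directly whether OGAP over input differed between KD and WT. No member was called, where 0.00584% of all windows were (1 window). With edgeR 4 members had an unadjusted p below 0.05 (8.89%, against 8.14% of all windows), and with DESeq2 2 had. MED18 had the lowest p, with -1.74 ± 0.44 (unadjusted p = 0.000169, edgeR adjusted p = 0.26), which is its OGAP difference of -0.65 less its input difference of 1.08. MED9, MED11 and MED16 followed at -1.02 ± 0.49, -0.92 ± 0.46 and -0.86 ± 0.46. The 4 lowest p-values among positive values belonged to TAF3 at 1.59 ± 0.56 (edgeR adjusted p = 0.451), SMARCB1 at 0.86 ± 0.48, EP300 at 0.64 ± 0.52 and GTF2F2 at 0.79 ± 0.65. All 7 tested middle module members had a negative value, and 13 of 18 Mediator members did, with a median of -0.44. The WT libraries that gave these genes their positive WT change enter this contrast too. Over all windows 8383 of 17130 were negative. Of the 5 tested Mediator genes outside the member list 4 were positive, with a median of 0.28. For members outside Mediator the median was -0.04, and for all windows 0.02.

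Other genes of the same and of related complexes were taken from a list that holds 112 further genes, of which 102 had a window and 85 were tested. Besides further Mediator, TFIID and SWI/SNF subunits, it covers other general transcription factors and other ATP-dependent remodellers. It also covers partners in SAGA, NuRD, PRC2 and CoREST, and cohesin genes as partners of CTCF. In WT 9 were called, 4 higher and 5 lower. That is 10.6%, below the 13.7% of all windows, so the share is no result about these genes. Highest of the 4 was RUVBL1, an AAA+ ATPase of the INO80 and related remodellers, at 2.46 ± 0.82 from 12 and 10 reads against 5 and 3. Its window shared 1539 bases with that of EEFSEC. Also higher were TAF7L at 1.24 ± 0.37, the TFIIH helicase gene ERCC3 at 1.08 ± 0.37 and TAF6L at 0.91 ± 0.32. The 5 lower were the CTCF paralogue CTCFL at -1.53 ± 0.45, the cohesin release factor WAPL at -1.38 ± 0.36, the CoREST gene RCOR3 at -1.37 ± 0.45, the SAGA scaffold gene TRRAP at -1.16 ± 0.39 and the NuRD gene MTA2 at -1.15 ± 0.36. DESeq2 called WAPL alone of the 9, and the other 8 had DESeq2 adjusted p of 0.0785 to 0.211. Each of the 9 lost its call without at least 2 of the 4 WT libraries; the ERCC3 change dropped to 0.23 without the second WT OGAP library, and without the first the TAF6L and TAF7L changes dropped to 0.41 and 0.81.

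The 5 Mediator genes outside the member list (MED12, MED12L, MED13L, MED14 and CDK19) had negative WT changes, from -0.69 to -0.05. None was called or had an unadjusted p below 0.05, and 5 of the 18 tested Mediator members were negative too. The 8 tested genes for cohesin subunits and regulators also had negative changes, and WAPL was the only one of them called. In KD 1 of the 85 was called (1.18%, against 0.736% of all windows), TAF7L, at 1.44 ± 0.38 (edgeR adjusted p = 0.0423), a call lost, among other settings, without either KD OGAP or either KD input library (adjusted p 0.0639 to 0.363). Its libraries were 68.5 and 85.8 CPM in OGAP and 28.8 and 27.4 in input. None of the 85 was called in the other 3 comparisons.

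Base composition varied with the WT change. RefSeq promoter sequence was matched for 45 of the 56 members matched to a window. It was not matched for MED6, MED8, MED13, MED21, MED22, MED28, MED30, TAF2, GTF2E2, SMARCC1 and SMARCC2. The 250 upstream bases had a median GC content of 58.4% in the members, with a range of 43.6% to 86.0%, against 62.8% over 11840 promoters of named windows. Across the 36 members with both a sequence and a test, GC content correlated with the WT change at r = -0.44 (Spearman -0.43), and across 10039 windows at r = -0.33 (-0.36). The number of CpG dinucleotides gave r = -0.48 (-0.50) in the members and -0.31 (-0.33) in all windows. Over the 30 members whose windows did not overlap another the GC value was -0.42 (-0.39). In KD the GC correlation was -0.34 in members and -0.25 in all windows. These correlations describe genes that share the same libraries and carry no test. The part of base composition in the results for single members was not tested.

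**Figure D4:**
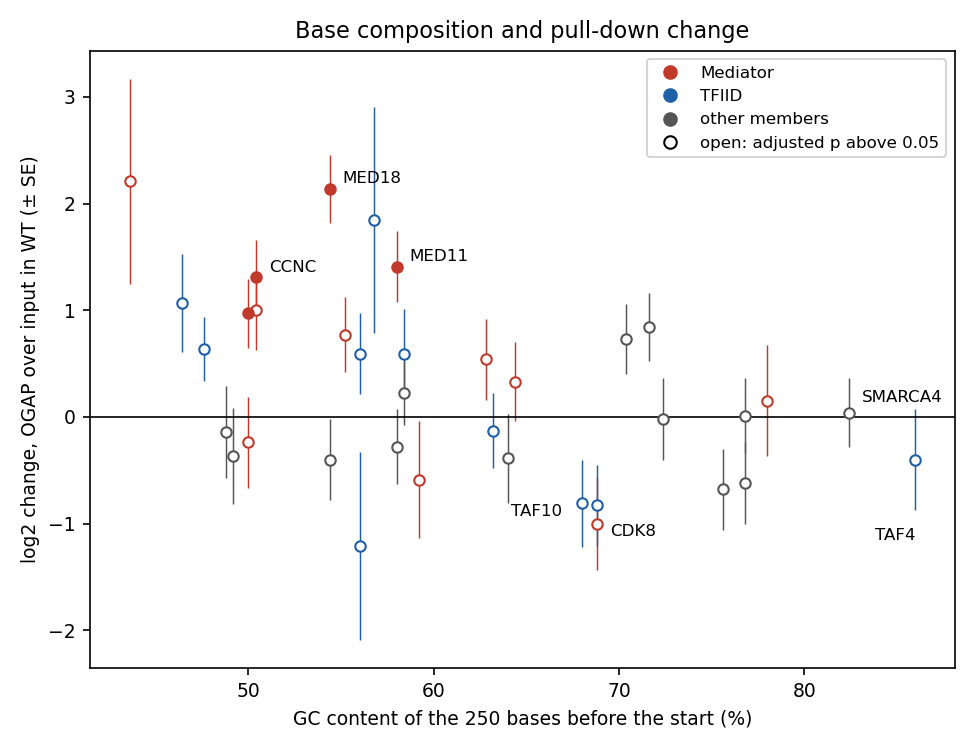
GC content of the 250 bases before the start (x axis, %) against the log2 change of OGAP over input in WT (y axis, ± SE) for the 36 tested members with a RefSeq promoter sequence. The called members shown, MED18, MED11, CCNC and MED16, have a GC content of 50.0% to 58.0%, and TAF4 at 86.0% has the highest of the members.

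The 4 called members with a sequence (MED18, MED11, CCNC and MED16) had GC contents of 54.4%, 58.0%, 50.4% and 50.0%, all at or below the members' median. Low GC content was also found in members that were not called. MED19 at 43.6%, TAF11 at 46.4%, TAF5 at 47.6%, GTF2B at 48.8% and GTF2F2 at 49.2% were below these. Of them, MED19, TAF11 and TAF5 had positive changes, the first 2 in overlapping windows. GTF2B and GTF2F2 had negative changes of -0.14 and -0.37. SMARCA4 at 82.4% and CTCF at 76.8% were GC-rich and had changes near 0, and HDAC1 at 71.6% had a positive change. The GC-rich members TAF4 at 86.0%, EP300 at 76.8% and EZH2 at 75.6% had negative changes of -0.40, -0.62 and -0.68, and that of TAF4 was 0.03 without the second WT OGAP library.

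Short promoter motifs were searched on both strands of the same 250 bases, as letters only. The GC box GGGCGG was present in 27 of 45 members (60%, against 58.6% of all promoters), the CCAAT box (CCAAT) in 16 (35.6% and 35.6%) and the TATA box core TATAAA in 3 (6.67% and 9.07%). The ETS core CCGGAAG was found in 8 members, MED18 and TAF3 among them (17.8%, against 12.8%). The 8-letter cyclic AMP response element TGACGTCA occurred in MED18 and TAF10 (4.44%, against 2.49%), and can be read as tgaCGtca in both sequences above. MED18, called higher in WT, and TAF10, with a negative change, thus both held this element. The element TCTCGCGA occurred in CCNC, MED1 and TAF7 (6.67%, against 1.70%), and the E box CACGTG in CDK8, GTF2B and TAF12 (6.67%, against 8.07%).

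Levels are compared here only among windows of the same length that overlap no other. Over these 39 members the group mean ran from 22.8 CPM (MED6) to 153 (MED18) in WT OGAP, with a median of 64.8, against 54.7 over all such windows. In WT input it ran from 30.4 (MED30) to 90.4 (GTF2F1), with a median of 54.7 against 57.0. In KD OGAP the range was 26.6 (TAF4) to 107 (TAF5) and the median 64.5 against 57.5, and in KD input 27.5 (GTF2F2) to 82.9 (HDAC1) and 55.9 against 56.6. MED18 was the highest member in WT OGAP, but not in either input group or in KD OGAP.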

How the data were processed

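DNA of RPE1 cells was measured in 8 OGAP-seq and input libraries, 2 in each of 4 groups. The counts deposited by the authors are raw promoter read counts, 1 per window and library, per the file headers. The submitters' processing notes name hg38 as build and BWA 0.7.17-r1188, MACS2, featureCounts and bedtools as tools. Coverage profiles summed over genes were not used here. The table gives Ensembl identifiers only, so windows were named by position against RefSeq (GRCh38.p14): the centre had to lie at most 500 bp from a protein-coding start of the same strand, with no second such gene (15375 windows, 77.0%, against 0.92% after a shift of 200 kb). Listed genes were also accepted at another transcript's start, or with their start anywhere in the window, which was decided after seeing the table.

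The test was that of edgeR 4.0.16 under R 4.3.3, on counts as deposited (glmQLFit and glmQLFTest, TMM scaling, filterByExpr; 4 group means over 8 libraries; 5 contrasts; Benjamini-Hochberg over 17130 windows; threshold 0.05). CPM values used TMM-scaled library sizes. The SE, which is approximate, is the absolute log2 change divided by the square root of F. The common biological coefficient of variation was 0.178, with 98.4 prior against 4 residual degrees of freedom, so a window's own spread counts for little in its p. The test was tried on simulated counts first. Alternatives were RLE and upper quartile scaling, no filter, DESeq2 1.42.0, a replicate block, only the compared groups, no overlapping windows, and each library left out.

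Members and lists were chosen with earlier results of these data known. Named with values were members past the threshold, the 4 lowest p in each direction per comparison, and in WT a set of 12 well-known members of which 10 were tested. Of these, TBP, MED1, SMARCA4, EP300, CREBBP, HDAC1, EZH2, KDM1A, CTCF and CDK8 had values, MED17 failed the filter and ARID1A was not matched. MED19, MED9, MED21, MED27, TAF2, TAF4, TAF5, TAF6, TAF11 and SMARCD1 in WT, and the WT-called members with TAF3 and CDK8 in KD, were added after their values were seen. Same-numbered libraries did not deviate together (correlations of deviations -0.04 to 0.024), so the replicate numbers were not taken to pair libraries.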

Additional observations from a re-analysis of the deposited data

How the results depend on the processing

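Read depth limits these results: a member held 3 to 85 reads in a single library where windows did not overlap. In WT 6 members were called, against 3 with DESeq2, 5 with a replicate block and 2 to 5 without 1 library. These were not always among the 6: TAF2 was called without the first WT input library (3 calls, with CCNC and MED18), TAF10 without the first WT OGAP library and MED1 without the second. Without the second WT input library 2 were called, MED11 and MED18. Upper quartile scaling, no filter, only the compared groups and the replicate block each called 5 and lost MED30, whose edgeR adjusted p was then 0.0643, 0.0601, 0.0648 and 0.0545. In the same order these settings called 2347 of 17130, 2390 of 19505, 2468 of 16798 and 2181 of 17130 windows. The main fit called 2346 of 17130. MED18 was called in WT under every alternative run. Over all windows in WT, DESeq2 called 884 and fits without 1 library 890 to 2442. In the other 4 comparisons no member was called under any alternative run. Some values short of the threshold changed sign, and the cause was not tested. In WT, SMARCA4 was -0.01 with upper quartile scaling and -0.37 to 0.37 without 1 library, CREBBP was 0.07 with a replicate block and -0.60 to 0.94 without 1 library, and CTCF was -0.04 with upper quartile scaling, -0.02 with no filter and -0.48 to 0.74 without 1 library. Without 1 library MED27 was -1.53 to 0.45 and TAF4 -0.98 to 0.03 in WT. MED16 in KD was -0.59 to 0.61, and CTCF in input (KD against WT) was -1.09 to 0.13, likewise without 1 library. Of the other values of single genes, 1044 stayed on their side of the threshold with the same sign, 74 fell short of it and 3 newly passed it.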

Other observations

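Input reads per window differed along the genome. RPE1 carries a gain of the long arm of chromosome 10, as background. TAF5 lies there and TAF3 lies on the short arm. The median input level over the 75 tested windows within 5 Mb of TAF5 was 96.8 CPM, against 56.9 over all tested windows without overlap, and TAF5 itself had 71.8. Around TAF3 the median over 33 windows was 50.8, and TAF3 had 49.3.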
